A study of Mus musculus with 12 samples.

Results

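The genes of the kinesin and cytoplasmic dynein motors were followed through 4 kinds of RNA library from mouse cortex. They were taken as all protein-coding mouse genes with a symbol that starts with Kif and a digit, Klc, Dync, Dynl or Dctn, which gave 65 of the 29879 genes counted. Of these, 50 had enough reads to be tested and 15 did not. By class, the 65 are 3 kinesin-1 heavy chains, 4 kinesin-1 light chains, 4 kinesin-2, 7 kinesin-3 and 4 kinesin-4 genes, 4 microtubule-depolymerizing kinesins, 11 kinesins of cell division, 5 other kinesins, 5 genes of cytoplasmic dynein 1, 2 of cytoplasmic dynein 2, 9 dynein light chains and 6 dynactin subunits. The last is Kif1bp, which meets the naming rule but encodes a protein that binds kinesins and is no motor. Every library was made from the cortex of mice of the SNAP25 bacTRAP line, at postnatal day 21. In this transgenic line the regulatory region of Snap25, a gene used by nerve cells, drives a ribosomal protein fused to the green fluorescent protein eGFP, so that ribosomes of the cells that make it can be pulled down with antibodies to eGFP. WCH is RNA of the cortex homogenate without a pull-down, and TRAP is RNA that came down with eGFP-tagged ribosomes from cortex. SNF is the synaptic band (SN) of a sucrose and Percoll gradient without a pull-down, and SynapTRAP is the eGFP pull-down from that band. All 4 groups carry the transgene, each has 3 libraries, and nothing in the labels says that replicates are separate animals, so the p-values measure the spread between libraries, which may be technical.

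Kinesins and dynein are ATP-driven motors that walk along microtubules. In axons most kinesins move vesicles, mitochondria and RNA granules outward, and cytoplasmic dynein, with its cofactor dynactin, moves cargo back to the cell body. Kinesin-1 is built of heavy chains, which hold the motor, and light chains, which bind cargo, and dynein 1 is built of a heavy chain, intermediate chains, light intermediate chains and light chains. Because the libraries contrast homogenate with a synaptic band, and total RNA with RNA on neuronal ribosomes, they show in which fraction the mRNA of each subunit was relatively abundant.

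Gene counts were 4368881 to 14335089 per library, of which 1819853 to 7115176 lay outside the mitochondrial genome. The motor genes held 25925 to 101569 counts per library. Mitochondrial transcripts took 82.2% to 87.3% of gene counts in SNF, 33.6% to 50.9% in WCH, 20.4% to 63.3% in SynapTRAP and 0.93% to 5.43% in TRAP, and the scaling factors between libraries ranged from 0.243 to 2.53. Levels are therefore given as CPM, counts divided by a library size that was scaled by trimmed means of M-values, and directions are relative to other genes. Of 12 neuronal markers, 6 were higher and 0 lower in TRAP against WCH, 3 higher and 2 lower in SNF against WCH, and 1 higher and 4 lower in SynapTRAP against TRAP. Of all tested genes, 11.1% were higher and 10.9% lower in the first comparison, 20.6% and 16.5% in the second, and 21.6% and 18.1% in the third. In TRAP against WCH the glial genes that were lower were 5 of 10 astrocyte markers, 6 of 10 for oligodendrocytes and 4 of 10 for microglia. In SNF against WCH, 10 of 10 astrocyte, 10 of 10 microglia and 6 of 10 oligodendrocyte markers were higher, and in SynapTRAP against TRAP 10, 10 and 8 were. Markers of fibroblasts and meninges (6 of 6) and of oligodendrocyte precursors (4 of 6) were also higher in SNF against WCH. In SynapTRAP against TRAP 5 of 6 of each were. Of the tested mural and endothelial markers, 3 of 5 and 1 of 7 were higher in SNF against WCH. The summed level of the astrocyte markers was 2422 to 3098 CPM in WCH, 657 to 1541 in TRAP, 14876 to 20452 in SNF and 10370 to 17989 in SynapTRAP. That of the microglia markers was 80.7 to 100, 24.4 to 52.7, 318 to 653 and 195 to 436 CPM. The oligodendrocyte sum was 2658 to 3401 CPM in WCH and 7262 to 9548 in SNF, while the TRAP libraries had 531, 2222 and, for replicate 3, 7093, and those of SynapTRAP 8837, 10004 and, for replicate 3, 21639. Most of both replicate 3 sums was the single marker Mbp, at 5937 CPM in TRAP and 16671 in SynapTRAP. The other markers were mixed in SynapTRAP replicate 3, where Mobp was highest (883 CPM beside 292 and 230) and Mal lowest (166 beside 249 and 259). No marker of these lists was at 0 in all libraries. These bulk values cannot tell fewer cells of a type from less RNA per cell.

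The sequences below show how far the reads of close relatives can be told apart, since several results compare them. The first set is 60 bases of coding sequence around the ATP-binding loop of the motor domain, with the loop's 24 bases in capitals, from GENCODE transcripts on GRCm38, each in the sense of its gene. The stretch of Kif5a lies at chr10:127247622-127248083 on the minus strand, that of Kif5c at chr2:49680185-49688658 on the plus strand, that of Kif3a at chr11:53570809-53578902 on the plus strand and that of Kif3b at chr2:153316548-153316607 on the plus strand. Intervals longer than the stretch span an intron.
Kif5a: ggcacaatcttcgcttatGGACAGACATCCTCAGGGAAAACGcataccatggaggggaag
Kif5c: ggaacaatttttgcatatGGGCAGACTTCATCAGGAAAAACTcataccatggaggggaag
Kif3a: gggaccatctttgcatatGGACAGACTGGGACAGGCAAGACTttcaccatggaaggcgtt
Kif3b: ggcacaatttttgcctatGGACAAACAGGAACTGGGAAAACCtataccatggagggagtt
Around this conserved loop, Kif5a and Kif5c differed at 9 of the 60 bases, Kif3a and Kif3b at 15, and Kif5a and Kif3a at 20. Within the 24 bases of the loop these pairs differed at 5, 7 and 8.

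The second set is the whole coding sequence of the dynein light chains Dynll1 (between chr5:115298696-115300644, minus strand) and Dynll2 (between chr11:87981433-87984003, minus strand), whose mRNAs were found at different relative levels in the synaptic band. Capitals mark the bases at which they differ.
Dynll1: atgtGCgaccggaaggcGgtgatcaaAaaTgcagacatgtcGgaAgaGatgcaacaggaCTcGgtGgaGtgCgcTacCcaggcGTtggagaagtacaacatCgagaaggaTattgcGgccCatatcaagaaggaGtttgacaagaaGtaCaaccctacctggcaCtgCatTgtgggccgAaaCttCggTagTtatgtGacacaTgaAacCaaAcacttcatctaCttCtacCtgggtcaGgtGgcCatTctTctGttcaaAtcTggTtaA
Dynll2: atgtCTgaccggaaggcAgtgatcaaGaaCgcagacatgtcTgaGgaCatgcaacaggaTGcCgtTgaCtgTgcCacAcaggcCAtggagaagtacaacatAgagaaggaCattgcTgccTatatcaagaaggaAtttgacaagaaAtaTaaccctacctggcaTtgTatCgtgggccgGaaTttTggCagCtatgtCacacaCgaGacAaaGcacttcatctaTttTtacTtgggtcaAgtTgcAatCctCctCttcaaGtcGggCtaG
They differed at 51 of 270 bases, and the longest run of identical bases was 16. Over whole transcripts, the share of stretches of 50 bases found also in another gene was at most 5.03% for every motor gene except Dynlt1a, Dynlt1b, Dynlt1c and Dynlt1f, light chain genes that shared 63.0% to 88.6% with one another, whose values are uncertain and which were too low to test. Whether the counting used strand is unknown here, so reads of genes with exons on the opposite strand could be mixed in. Among the genes called in a comparison, the exons of Kif3c overlapped such exons over 40.7% of their length and those of Kif7 over 20.3%. For Kif2a it was 19.2%, for Dctn6 11.8% and for Klc2 10.6%. Among genes not called, it was 29.3% for Kif20a, 28.1% for Klc3, 15.1% for Kif4, 14.6% for Dynlt1a and 10.1% for Kif1bp.

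Per kilobase of exon, Kif5a was the most abundant motor mRNA in WCH at 73.2 ± 3.13 CPM per kb (SD, n = 3), followed by the kinesin-3 gene Kif1a at 64.1 ± 3.88 and the dynein light chain Dynlrb1 at 63.6 ± 8.86. Kif5a was above Kif1a by more than their spread, and Kif1a and Dynlrb1 lay within it. Kif5c followed at 56.0 ± 5.45, the kinesin light chain Klc1 at 40.3 ± 1.14, the light chain Dynlt3 at 40.1 ± 1.59, the dynactin subunit Dctn3 at 33.1 ± 4.33 and Kif1b at 26.9 ± 1.57 CPM per kb. In TRAP the order began with Kif1a (124 ± 43.6), Dynlrb1 (114 ± 32.5), Kif5a (101 ± 65), Dctn3 (88.0 ± 19.2) and Klc1 (85 ± 22.9), and these 5 were not separated by their spread. In SNF it began with Kif5a (247 ± 43.2), Kif1a (184 ± 12.5), Kif5c (136 ± 11.7), Kif1b (51.2 ± 2.84) and Dynlrb1 (50.3 ± 6.97). In SynapTRAP it began with Kif5a (314 ± 163), Kif1a (207 ± 11.4), Kif5c (123 ± 43.7), Kif1b (54.7 ± 4.56) and the dynein heavy chain Dync1h1 (53.9 ± 16.7). The first 3 places of both synaptic-band groups were thus taken by Kif5a, Kif1a and Kif5c, while Kif1b and the gene in the fifth place lay within their spread. Kif12 and Kif2b were at 0 in all 12 libraries, and the other 13 untested genes reached at most 1.49 CPM in any library.

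All motor genes together summed to 3809 ± 38.4 CPM in WCH and 5985 ± 1766 in TRAP, and in the band to 7132 ± 278 in SNF and 8448 ± 1389 in SynapTRAP (SD, n = 3). The 3 kinesin-1 heavy chains held 26.1 ± 0.557% of the motor gene counts in WCH and 17.7 ± 3.81% in TRAP, against 40.3 ± 4.75% in SNF and 38.1 ± 11.6% in SynapTRAP. The 4 kinesin-1 light chains held 5.29 ± 0.129%, 7.43 ± 2.55%, 1.80 ± 0.195% and 2.16 ± 0.448% in the same order. Kinesin-3 genes held 28.8 ± 1.39%, 29.2 ± 1.36%, 37.3 ± 2.48% and 35.6 ± 5.61%, and dynein 1 genes 10.6 ± 1.27%, 19.3 ± 5.27%, 9.50 ± 2.29% and 12.9 ± 4.27%. Dynactin held 6.92 ± 0.109%, 7.75 ± 0.959%, 2.79 ± 0.158% and 3.06 ± 0.742%, and dynein light chains 8.0 ± 0.860%, 7.48 ± 2.65%, 2.96 ± 0.371% and 1.99 ± 0.405%. These shares do not depend on the scaling between libraries, but longer mRNAs give more counts.

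**Figure D1:**
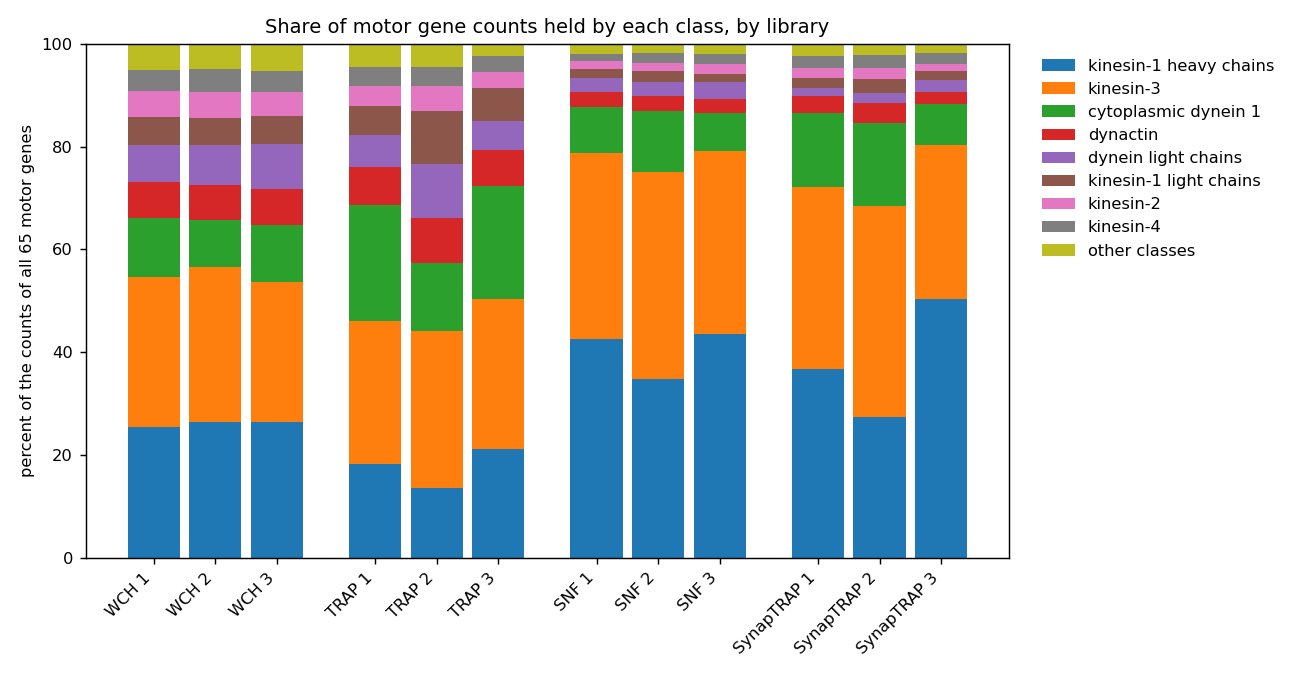
Percent of the counts of all 65 motor genes (vertical axis) held by each class in each of the 12 libraries. Kinesin-1 heavy chains (blue) held 26.1% on average in WCH and 40.3% in SNF, while light chains, dynactin and dynein light chains were thinner bands in SNF and SynapTRAP than in WCH.

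Each gene was tested over all 12 libraries with edgeR's quasi-likelihood test, and a gene was called at a Benjamini-Hochberg adjusted p under 0.05 over all 13404 genes tested. Between TRAP and WCH, 11 of the 50 tested motor genes were higher (22.0%, where 11.1% of all tested genes were) and 0 were lower (10.9% of all). At an unadjusted p under 0.05, 2 were lower, and DESeq2 called 0 (1533 of all 13404 genes). The median log2 change was 0.190 over the 50 motor genes and -0.014 over all genes. Between SNF and WCH, 7 were higher (14.0%, against 20.6% of all) and 13 lower (26.0%, against 16.5%), with a median of -0.416 beside -0.250 for all genes. The larger share of lower genes depended on the method. With median-ratio (RLE) scaling 5 of the 50 were lower, beside 1415 of all 13404 genes, and with DESeq2 7, beside 1502. Of the 13 lower calls 11 were lost in at least 1 fit that left out a library, and of the 7 higher calls 0 were. Between SynapTRAP and SNF, 2 were higher (4.0%, against 2.29%) and 0 lower (1.79% of all). For the latter, 1 was lower at an unadjusted p under 0.05 and DESeq2 called 1 (617 of all 13404 genes). The medians were 0.350 and 0.029. These libraries were taken as paired by replicate number from the data, since the labels do not say what the numbers mean. The calls above are from the fit without that pairing. With replicate number as a block 4 motor genes were higher (441 of all 13404 genes), with Dctn1 (0.96, adjusted p = 0.0437 by edgeR) and Dync1li2 (0.86, adjusted p = 0.0321) added. Between SynapTRAP and TRAP, 11 were higher (22.0%, against 21.6%) and 15 lower (30.0%, against 18.1%), with medians of -0.215 and -0.024. In the test of whether the pull-down changed a gene differently in the band than in the homogenate, 0 were higher (0.507% of all genes) and 1, Dctn3, was lower (0.358% of all). For the former, 5 were higher at an unadjusted p under 0.05 and DESeq2 called 1 (175 of all 13404 genes). The comparisons share groups and are not independent.

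Scaling by total gene counts, mitochondrial RNA included, moved the median of all genes to 0.564 in TRAP against WCH, -2.597 in SNF against WCH, 1.979 in SynapTRAP against SNF and -0.999 in SynapTRAP against TRAP. The signs of several motor genes flipped with it, and they are named below. The position relative to that median was computed for the called genes that got full statistics, which were 11 of 11 in TRAP against WCH, 6 of 7 higher and 12 of 13 lower in SNF against WCH, 2 of 2 in SynapTRAP against SNF, and 8 of 11 higher and 14 of 15 lower in SynapTRAP against TRAP. Each of these stayed on the same side of it. A change of scaling shifts all genes and their median by nearly the same amount, so this could hardly come out otherwise. In SNF against WCH, for example, Kif5a less the median was 2.005, and 1.969 with total gene counts. The position is therefore no check on the calls.

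**Figure D2:**
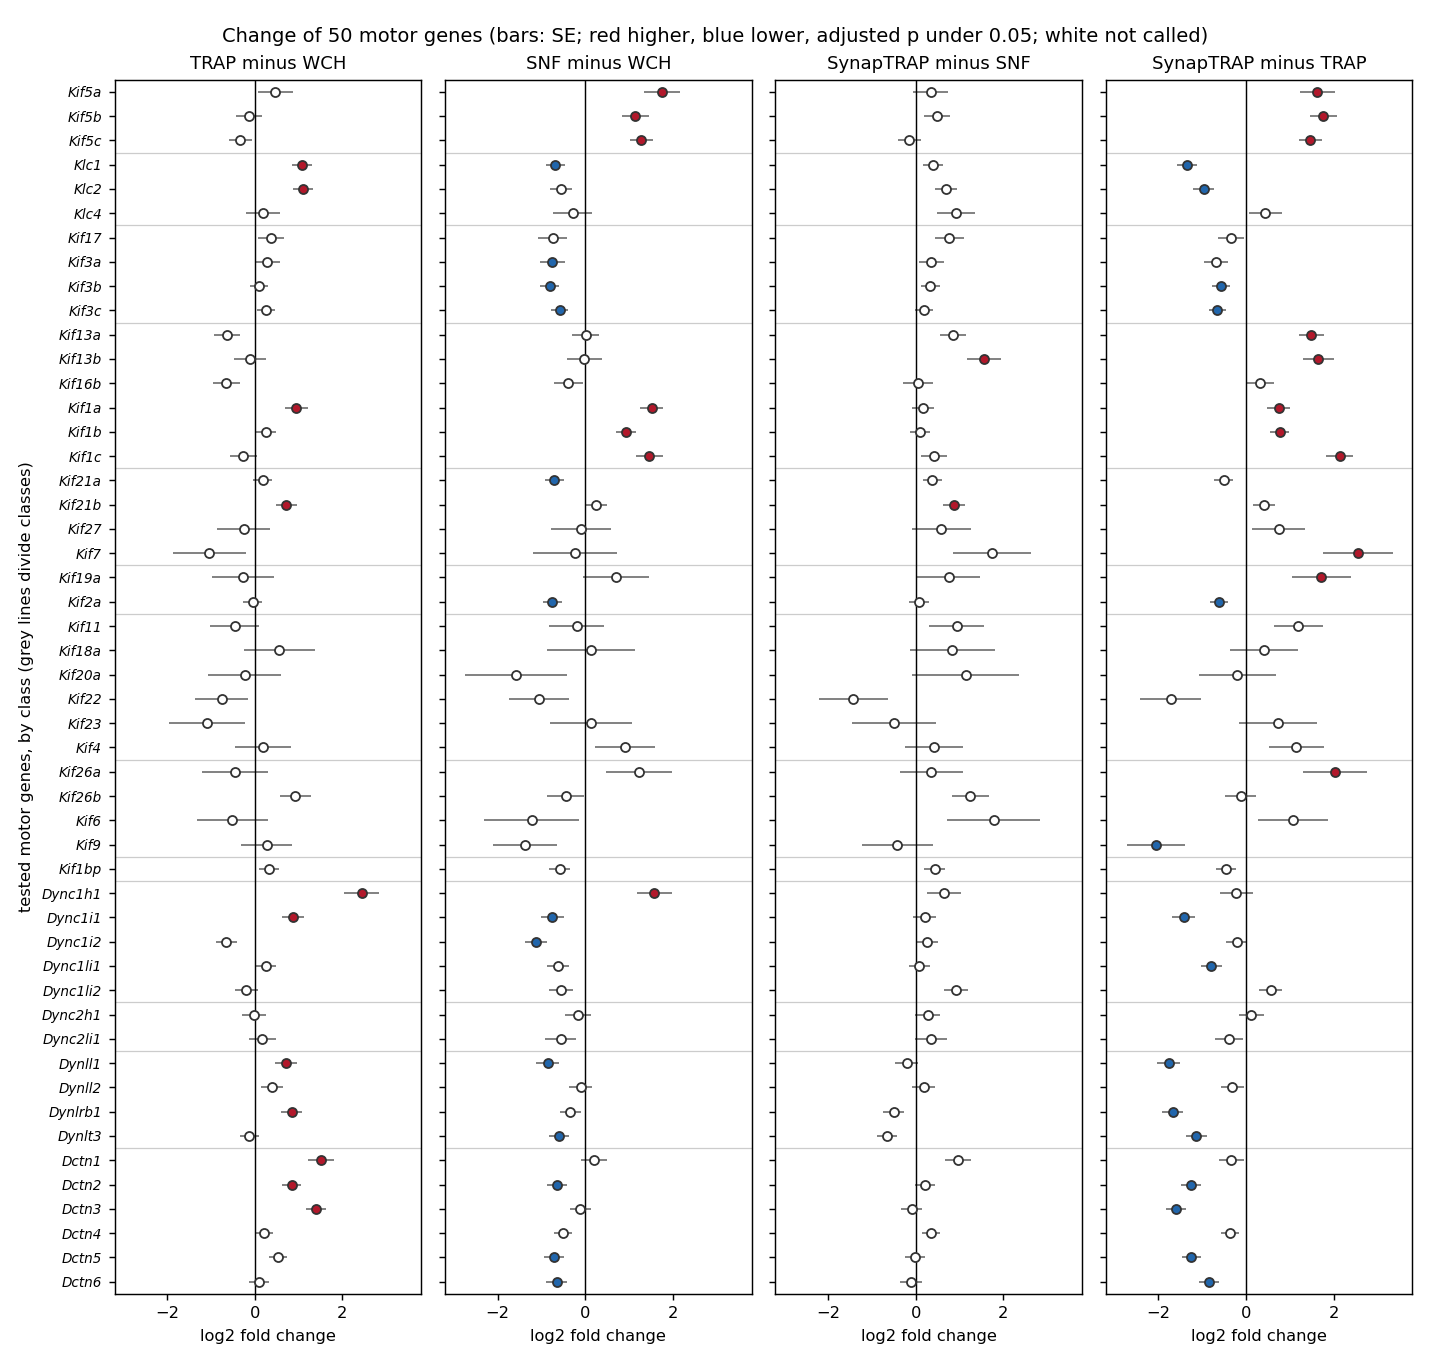
Log2 fold change with its SE (horizontal axis) of the 50 tested motor genes in 4 comparisons, in the scaling by trimmed means of M-values, with red for higher, blue for lower and white for not called. The 3 Kif5 genes lay to the right and Klc1 and the dynactin genes Dctn2 and Dctn5 to the left in both SNF minus WCH and SynapTRAP minus TRAP. Scaling by total gene counts would shift the whole SNF minus WCH panel to the left.

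The kinesin-1 heavy chains Kif5a, Kif5b and Kif5c, the motor subunits of the main carrier of outward transport, were all higher in the synaptic band than in the homogenate. Kif5a was at 536, 507 and 493 CPM in WCH, 607, 314 and 1206 in TRAP, 1999, 1402 and 1784 in SNF, and 2029, 1143 and 3405 in SynapTRAP. Every SNF library lay above every WCH library, while TRAP replicate 3 overlapped the SynapTRAP range. Kif5c was at 356, 431 and 412 CPM in WCH, 362, 232 and 358 in TRAP, 979, 882 and 1049 in SNF, and 738, 663 and 1237 in SynapTRAP. Kif5b, the form made in most cell types, was at 75.3, 79.7 and 88.6 CPM in WCH, 92.4, 38.4 and 91.7 in TRAP, 189, 139 and 209 in SNF, and 216, 170 and 370 in SynapTRAP. For Kif5b and Kif5c the groups from the band did not overlap with those from the homogenate. In SNF against WCH the log2 change was 1.75 (SE 0.41, adjusted p = 0.00252 by edgeR) for Kif5a, 1.28 (SE 0.27, adjusted p = 0.000706) for Kif5c and 1.14 (SE 0.31, adjusted p = 0.0063) for Kif5b. With total gene counts as scaling these became -0.63, -1.07 and -1.21, each above the all-gene median of -2.597. In SynapTRAP against TRAP the changes were 1.63 (SE 0.41, adjusted p = 0.00389), 1.47 (SE 0.27, adjusted p = 0.0002) and 1.76 (SE 0.31, adjusted p = 0.000164). All 6 calls held when any library of the comparison was left out, with values from 1.01 to 1.89 in SNF against WCH and from 1.14 to 2.20 in SynapTRAP against TRAP. Neither pull-down changed a Kif5 gene past the threshold. In TRAP against WCH, Kif5a was at 0.47 and turned to -0.12 without TRAP replicate 3, the library in which the oligodendrocyte marker Mbp was at 5937 CPM beside 1272 and 153 in the remaining TRAP samples. Among the SynapTRAP libraries Kif5a and Mbp were again highest in replicate 3, where Mbp was at 16671 CPM beside 6195 and 4685. Other oligodendrocyte markers were mixed in that library, with Mobp highest (883 CPM beside 292 and 230) and Mal lowest (166 beside 249 and 259). The part of glial RNA in the Kif5 changes was not tested.

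Of the 3 tested kinesin-1 light chains, which bind cargo, 2 were higher in TRAP than in WCH (11.1% of all genes were), 1 was lower in SNF than in WCH (16.5%) and 2 were lower in SynapTRAP than in TRAP (18.1%). Klc1, a light chain abundant in nerve cells, was at 162, 161 and 169 CPM in WCH, 251, 350 and 437 in TRAP, 102, 112 and 93.3 in SNF, and 122, 142 and 142 in SynapTRAP. All TRAP libraries were above all others and all SNF libraries below all others. Klc2 was at 37.5, 33.4 and 31.5 CPM in WCH, 70.9, 88.9 and 59.6 in TRAP, 23.9, 26.8 and 19.0 in SNF, and 41.8, 44.1 and 26.1 in SynapTRAP. Klc1 rose in TRAP against WCH by 1.08 (SE 0.22, adjusted p = 0.00211 by edgeR) and Klc2 by 1.10 (SE 0.24, adjusted p = 0.00256), and both calls held without any 1 library. In SNF against WCH, Klc1 fell by 0.68 (SE 0.23, adjusted p = 0.0218), and Klc2 was at -0.56 (adjusted p = 0.0768). Leaving out any WCH library (-0.58, -0.70 and -0.66 without replicates 1, 2 and 3) or the SNF replicates 1 (-0.68) or 3 (-0.62) ended the Klc1 call, as did median-ratio (RLE) scaling (-0.54, adjusted p = 0.0752). In SynapTRAP against TRAP, Klc1 fell by 1.35 (SE 0.23, adjusted p = 8.89e-05) and Klc2 fell by 0.96 (SE 0.24, adjusted p = 0.00259), again without depending on 1 library. Klc4 was low, at 1.33 to 5.61 CPM, and was called in none of these comparisons, with changes from -0.29 to 0.92, and Klc3 was too low to test.

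Because the heavy chains and Klc1 moved apart, their mean ratio within a library was several fold higher in the band than in the homogenate, whatever the scaling. Klc1 was the only light chain used here, and the ratios restate the changes of the single genes. The scarce Klc4 did not move the same way as Klc1, at 0.44 in SynapTRAP against TRAP. The ratio of Kif5a to Klc1 counts was 3.31, 3.16 and 2.91 in WCH, 2.42, 0.897 and 2.76 in TRAP, 19.6, 12.5 and 19.1 in SNF, and 16.6, 8.04 and 23.9 in SynapTRAP. The ratio of Kif5c to Klc1 was 2.20 to 2.69 in WCH, 0.663 to 1.45 in TRAP, 7.85 to 11.2 in SNF and 4.66 to 8.69 in SynapTRAP. That of Kif5b to Klc1 was 0.465 to 0.523, 0.110 to 0.369, 1.23 to 2.24 and 1.20 to 2.60 in the same order. For all 3 heavy chains, every TRAP library was below every WCH library and every library of the band above every library of the homogenate. The ratios were not tested, and as counts they also carry the lengths of the mRNAs, which are the same in every library.

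**Figure D3:**
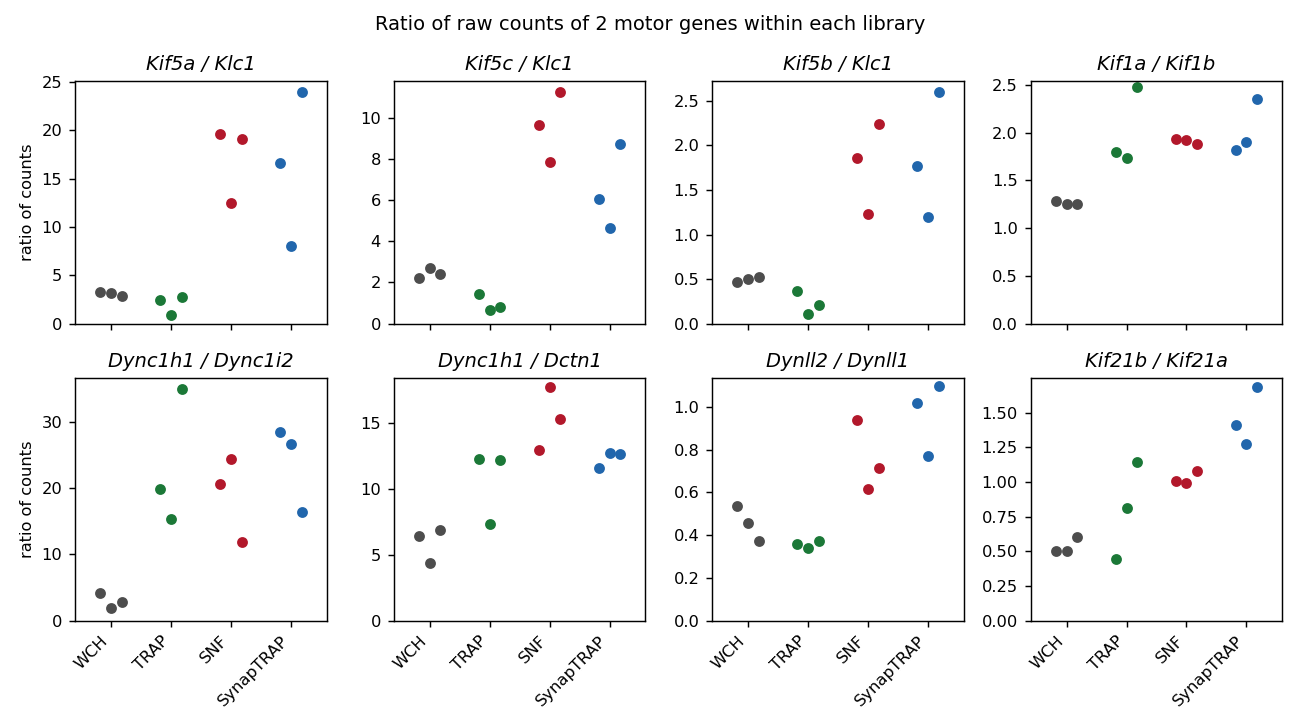
Ratio of the raw counts of 2 motor genes within each library (vertical axis), 3 points per group. The Kif5a to Klc1 ratio was 2.91 to 3.31 in WCH and 12.5 to 19.6 in SNF, and the Dync1h1 to Dync1i2 ratio was 1.85 to 4.20 in WCH and at least 11.8 in each library of the other 3 groups.

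The kinesin-3 genes include carriers of synaptic vesicle precursors and dense core vesicles. Kif1a was at 612, 625 and 557 CPM in WCH, 1034, 821 and 1607 in TRAP, 1753, 1817 and 1590 in SNF, and 1832, 1926 and 2045 in SynapTRAP. All libraries of the other groups were above those of WCH, and all SynapTRAP libraries above all others. It rose in TRAP against WCH by 0.95 (SE 0.26, adjusted p = 0.0117 by edgeR) and in SNF against WCH by 1.52 (SE 0.26, adjusted p = 0.000114). In SynapTRAP against TRAP it was 0.74 higher (SE 0.26, adjusted p = 0.0247). The first call was lost without WCH replicate 2 (0.98), WCH replicate 3 (0.90) or TRAP replicate 3 (0.67). The last was lost without TRAP replicate 1 (0.64), TRAP replicate 2 (0.51) or SynapTRAP replicate 1 (0.75), with scaling to counts outside the mitochondrial genome (0.51), with no filter on low counts (0.73) and with a fit of TRAP and SynapTRAP alone (0.80), and turned to -0.17 with total gene counts, which also turned the SNF against WCH value to -0.84. Kif1b was at 475, 501 and 446 CPM in WCH, 574, 474 and 649 in TRAP, 908, 947 and 848 in SNF, and 1006, 1014 and 871 in SynapTRAP. Its change was 0.93 in SNF against WCH (SE 0.23, adjusted p = 0.00283), held without any 1 library, and 0.77 in SynapTRAP against TRAP (SE 0.22, adjusted p = 0.0095). The second call was lost without TRAP replicate 2 (0.61), with scaling outside the mitochondrial genome (0.50) and in the fit of TRAP and SynapTRAP alone (0.83). With total gene counts the values were -1.43 and -0.14. Within a library the ratio of Kif1a to Kif1b counts was 1.25 to 1.29 in WCH and at least 1.73 in every library of the other groups.

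The other kinesin-3 genes were less abundant. Kif1c, a motor found in many cell types, was at 5.01, 9.99 and 8.06 CPM in WCH, 5.37, 5.70 and 8.21 in TRAP, 21.9, 17 and 24.8 in SNF, and 26.8, 19.1 and 39.3 in SynapTRAP, with all libraries of the band above all of the homogenate. It was 2.14 higher in SynapTRAP than in TRAP (SE 0.31, adjusted p = 1.83e-05 by edgeR), and the call held without any 1 library. Kif13b was at 3.47, 3.71 and 2.38 CPM in WCH, 3.06, 1.90 and 3.94 in TRAP, 3.16, 2.13 and 4.13 in SNF, but 7.05, 9.55 and 11.5 in SynapTRAP. SynapTRAP alone stood above the other 3 groups, which overlapped. Kif13b rose in SynapTRAP against SNF by 1.56 (SE 0.39, adjusted p = 0.026) and was 1.65 higher than in TRAP (adjusted p = 0.000932). The call against SNF was lost without SNF replicate 1 (1.57), 2 (1.35) or 3 (1.82) and without SynapTRAP replicate 1 (1.63) or 3 (1.40). Its test for a different pull-down effect in the band than in the homogenate gave an adjusted p of 0.11. Kif13a was at 7.94 to 10.4 CPM in WCH, 4.89 to 8.39 in TRAP, 6.91 to 11.2 in SNF and 13.0 to 21.7 in SynapTRAP, and was called higher in SynapTRAP than in TRAP. Kif16b, at 3.08 to 7.6 CPM, was called in no comparison, and Kif28 was too low to test. In all, 5 of 6 tested kinesin-3 genes were higher in SynapTRAP than in TRAP (21.6% of all genes were) and 3 of 6 in SNF than in WCH (20.6% of all), with 0 lower in either.

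Of the 4 kinesin-2 genes, which form the motors of cilia and of some neuronal cargoes, 3 were lower in SNF than in WCH (16.5% of all genes were) and 2 in SynapTRAP than in TRAP (18.1% of all). Kif3b, the partner of Kif3a in the same motor, was at 33.1, 33.6 and 35.5 CPM in WCH, 35.2, 33.7 and 40.0 in TRAP, 20.4, 18.6 and 19.2 in SNF, and 28.5, 21.8 and 23.3 in SynapTRAP. It fell by 0.81 in SNF against WCH (SE 0.22, adjusted p = 0.00537 by edgeR), a call that held without any 1 library. Kif3a was at 64.9, 71.4 and 57.1 CPM in WCH, 93.6, 43.7 and 99.1 in TRAP, 30.2, 41.7 and 43.0 in SNF, and 46.2, 66.6 and 34.5 in SynapTRAP. It fell by 0.75 in SNF against WCH (SE 0.29, adjusted p = 0.0432), a call lost without any 1 of the 6 libraries, at values from -0.84 to -0.61. Kif3c fell by 0.58 (SE 0.20, adjusted p = 0.0283), which did not pass without WCH replicate 1 (-0.43) or 2 (-0.59), or without any SNF library (-0.61, -0.54 and -0.61). With RLE scaling neither Kif3a (-0.62) nor Kif3c (-0.46) was called. Kif17, a dendritic carrier of receptors, was at 4.93 to 6.94 CPM in WCH and 2.67 to 4.31 in SNF, without overlap, but was not called (-0.74, adjusted p = 0.0852). In SynapTRAP against TRAP, Kif3c fell by 0.65 (adjusted p = 0.0128) and Kif3b fell by 0.57 (adjusted p = 0.0321). The Kif3b call was lost without TRAP replicate 3 (-0.53), SynapTRAP replicate 2 (-0.49) or SynapTRAP replicate 3 (-0.53), and both calls were lost in the fit of TRAP and SynapTRAP alone (-0.60 for Kif3c and -0.51 for Kif3b).

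Among kinesin-4 genes, the related Kif21a and Kif21b, which slow microtubule growth, differed. Kif21a was at 101, 114 and 91.0 CPM in WCH, 144, 86.8 and 116 in TRAP, 56.6, 63.8 and 66.6 in SNF, and 79.6, 82.3 and 82.5 in SynapTRAP. It fell by 0.71 in SNF against WCH (SE 0.22, adjusted p = 0.0141 by edgeR), which did not pass without the WCH replicates 1 (-0.61) or 2 (-0.63) or the first SNF library (-0.65). Kif21b was at 51.0, 56.8 and 54.6 CPM in WCH, 64.7, 70.3 and 133 in TRAP, 56.9, 63.5 and 71.9 in SNF, and 112, 105 and 139 in SynapTRAP. Both pull-downs lay above their input without overlap. It was 0.72 higher in TRAP than in WCH (SE 0.25, adjusted p = 0.0391) and 0.89 higher in SynapTRAP than in SNF (SE 0.25, adjusted p = 0.0465). The first call was lost without any WCH library (0.72 to 0.76) and without TRAP replicate 3 (0.35). The second was lost without SNF replicate 1 (0.81), 2 (0.88) or 3 (0.98), without SynapTRAP replicate 1 (0.83) or 3 (0.76), and with RLE scaling (0.78, adjusted p = 0.0813). The ratio of Kif21b to Kif21a counts was 0.500 to 0.600 in WCH, 0.449 to 1.15 in TRAP, 0.996 to 1.08 in SNF and 1.28 to 1.69 in SynapTRAP. Kif7 and Kif27, known from cilia, reached at most 2.95 CPM. Kif7 was at 0.204 to 0.272 CPM in TRAP and 0.834 to 1.92 in SynapTRAP, 2.56 higher (SE 0.80, adjusted p = 0.0144), a call lost without TRAP replicate 1 (2.40) or SynapTRAP replicate 1 (2.37).

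Kif2a, which shortens microtubules at their ends, was at 57.0, 70.1 and 61.9 CPM in WCH, 77.2, 49.6 and 55.5 in TRAP, 37.4, 34.5 and 40.6 in SNF, and 34.9, 43.9 and 40.2 in SynapTRAP. No library of the band reached any of the homogenate. It fell by 0.75 in SNF against WCH (SE 0.22, adjusted p = 0.011 by edgeR) and by 0.62 in SynapTRAP against TRAP (SE 0.22, adjusted p = 0.0264). The first call was lost without WCH replicate 2 (-0.67) or SNF replicate 2 (-0.70), and the second without TRAP replicate 1 (-0.44) or SynapTRAP replicate 1 (-0.56) and in the fit of TRAP and SynapTRAP alone (-0.56). Kif19a, of the same class, was at 0 to 1.29 CPM in TRAP and 2.64 to 2.95 in SynapTRAP and was called higher there (1.72, adjusted p = 0.0471 by edgeR), a call lost without any 1 library except TRAP replicate 1, at 1.13 to 1.98. The division kinesins, 6 of 11 of them tested, stayed at or below 3.98 CPM in every library and were called in no comparison. The markers of dividing cells summed to 8.77 to 21.8 CPM. Of the remaining kinesins, Kif9 was at 1.63 to 4.07 CPM in TRAP and 0.152 to 1.33 in SynapTRAP and fell by 2.06 (SE 0.66, adjusted p = 0.0165), a call lost without TRAP replicate 1 (-1.67) or SynapTRAP replicate 2 (-1.53). Kif26a was at 0 to 1.54 CPM in TRAP and 2.16 to 4.86 in SynapTRAP and was 2.03 higher (SE 0.72, adjusted p = 0.0292). That call was lost without TRAP replicate 1 (1.37), TRAP replicate 2 (1.98) or SynapTRAP replicate 3 (1.58), and the value was 3.10 without TRAP replicate 3.

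**Figure D4:**
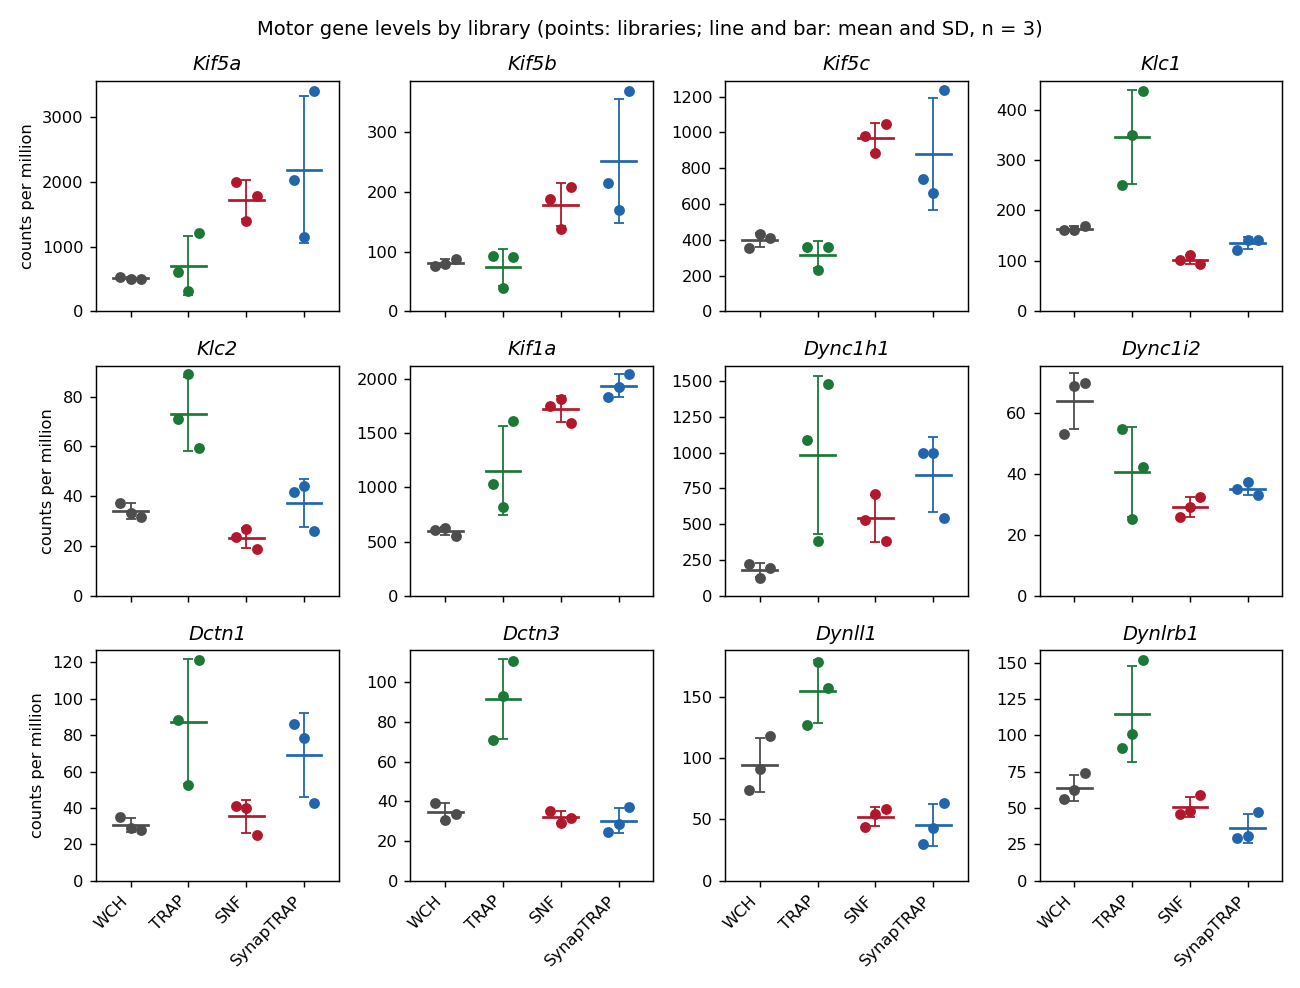
Level of 12 motor genes in CPM (vertical axis from 0) in the 3 libraries of each group, with the mean and SD. Kif5a, Kif5b and Kif5c were high in both groups of the synaptic band, Klc1, Klc2, Dctn3, Dynll1 and Dynlrb1 were highest in TRAP, and Dync1h1 lay above WCH in all libraries of the other 3 groups.

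Cytoplasmic dynein 1 carries cargo toward the cell body. The mRNA of its heavy chain Dync1h1, which holds the motor, was at 223, 127 and 193 CPM in WCH, 1086, 387 and 1476 in TRAP, 532, 711 and 383 in SNF, and 998, 994 and 542 in SynapTRAP. Every library of the other groups exceeded every WCH library, while TRAP, SNF and SynapTRAP overlapped. It was 2.44 higher in TRAP than in WCH (SE 0.41, adjusted p = 0.000678 by edgeR), the largest change of any called motor gene in that comparison, and 1.58 higher in SNF than in WCH (SE 0.40, adjusted p = 0.00458). Both calls held without any 1 library, at 2.06 to 2.86 and 1.34 to 1.87, and the second was -0.76 with total gene counts. The pull-down from the band did not change it past the threshold (0.64, adjusted p = 0.388). The difference between the pull-down effects was -1.80 (SE 0.55, adjusted p = 0.105), and DESeq2 called it (-1.95, adjusted p = 0.0141), as did the fit with no filter on low counts (-1.78, adjusted p = 0.00412).

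Of the intermediate chains, which link the heavy chain to dynactin, only Dync1i1 was also higher in TRAP than in WCH, and both were lower in SNF than in WCH. Dync1i2 was at 53.1, 68.5 and 69.5 CPM in WCH, 54.5, 25.2 and 42.3 in TRAP, 25.9, 29.2 and 32.3 in SNF, and 35.0, 37.3 and 33.0 in SynapTRAP. It fell by 1.13 in SNF against WCH (SE 0.25, adjusted p = 0.00136 by edgeR), which held without any 1 library, and was at -0.65 in TRAP against WCH (adjusted p = 0.0574). Dync1i1, the intermediate chain made mainly in brain, was at 31.2, 28.6 and 31.7 CPM in WCH, 55.6, 47.8 and 65.1 in TRAP, 15.5, 21.3 and 17.5 in SNF, and 22.4, 27.8 and 11.9 in SynapTRAP. TRAP stood above and the band below the homogenate, without overlap. Dync1i1 was 0.88 higher in TRAP than in WCH (SE 0.25, adjusted p = 0.0156), fell by 0.75 in SNF against WCH (SE 0.27, adjusted p = 0.0309) and fell by 1.43 in SynapTRAP against TRAP (SE 0.26, adjusted p = 0.000181). The first call was lost without WCH replicate 2 (0.84), WCH replicate 3 (0.92) or TRAP replicate 3 (0.80). The second was lost without any WCH library (-0.63, -0.80 and -0.72 without replicates 1, 2 and 3), without the SNF replicates 1 (-0.66) or 3 (-0.73), and with RLE scaling (-0.62). The third held. The ratio of Dync1h1 to Dync1i2 counts within a library was 4.20, 1.85 and 2.78 in WCH, 19.9, 15.4 and 34.9 in TRAP, 20.6, 24.3 and 11.8 in SNF, and 28.5, 26.7 and 16.4 in SynapTRAP.

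The light intermediate chains hold the adaptors of dynein cargo. Dync1li1 was at 34.6, 27.8 and 33.2 CPM in WCH, 45.9, 28.7 and 39.5 in TRAP, 21, 19.9 and 21.1 in SNF, and 22.0, 28 and 15.6 in SynapTRAP. It fell by 0.79 in SynapTRAP against TRAP (SE 0.24, adjusted p = 0.0119 by edgeR), a call lost without TRAP replicate 1 (-0.66) and in the fit of TRAP and SynapTRAP alone (-0.73). Dync1li2 was at 98.1, 102 and 92.9 CPM in WCH, 76.4, 78.6 and 100.5 in TRAP, 74.2, 53.1 and 71.5 in SNF, and 96.0, 82.7 and 199 in SynapTRAP, and was called in none of the comparisons without the replicate block. Cytoplasmic dynein 2, the motor of return transport in cilia, was called in none. Its heavy chain Dync2h1 was at 15.9 to 37.7 CPM and Dync2li1 at 2.13 to 6.04.

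The dynein light chains were the class with the lowest median in SynapTRAP against TRAP, -1.41 over the 4 tested genes, of which 3 fell (18.1% of all genes did). Dynll1, a dimer found in dynein and in many other complexes, was at 74.3, 91.1 and 118 CPM in WCH, 127, 178 and 157 in TRAP, 43.7, 54.7 and 58.3 in SNF, and 30.0, 43.0 and 63.5 in SynapTRAP. TRAP was above WCH, and WCH above both groups of the band, without overlap. Dynll1 was 0.71 higher in TRAP than in WCH (SE 0.26, adjusted p = 0.0491 by edgeR), fell by 0.85 in SNF against WCH (SE 0.26, adjusted p = 0.0138) and fell by 1.77 in SynapTRAP against TRAP (SE 0.26, adjusted p = 2.66e-05). The first call was lost without WCH replicate 1 (0.60), WCH replicate 2 (0.68), TRAP replicate 2 (0.63) or TRAP replicate 3 (0.73), and with scaling outside the mitochondrial genome (0.60). The second was lost without WCH replicate 3 (-0.67) or SNF replicate 1 (-0.74), and the third held. Its relative Dynll2 was at 39.9, 41.5 and 44.0 CPM in WCH, 45.7, 60.5 and 58.6 in TRAP, 41.1, 33.7 and 41.6 in SNF, and 30.5, 33.2 and 69.7 in SynapTRAP. Dynll2 was called in no comparison, with values from -0.31 to 0.40, and its count ratio to Dynll1 was 0.373 to 0.537 in WCH, 0.339 to 0.373 in TRAP, 0.617 to 0.941 in SNF and 0.773 to 1.10 in SynapTRAP. That ratio was higher in every library of the band than in every library of the homogenate.

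Dynlrb1, a light chain that binds the intermediate chains, was at 56.2, 62.3 and 73.8 CPM in WCH, 91.1, 101 and 152 in TRAP, 45.7, 47.8 and 58.8 in SNF, and 29.6, 31.0 and 47.4 in SynapTRAP. The pull-down was above its input in the homogenate, while SynapTRAP and SNF overlapped. Dynlrb1 was 0.84 higher in TRAP than in WCH (SE 0.24, adjusted p = 0.0158 by edgeR) and fell by 1.68 in SynapTRAP against TRAP (SE 0.25, adjusted p = 2.36e-05). The first call was lost without WCH replicate 1 (0.79), WCH replicate 2 (0.82) or TRAP replicate 3 (0.62). The difference between both pull-down effects was -1.34 (SE 0.34, adjusted p = 0.0595). It was called with RLE scaling (-1.47, adjusted p = 0.046), with the replicate block, with no filter on low counts (-1.32) and by DESeq2 (-1.47, adjusted p = 0.00601). Dynlt3 was at 99.6 to 108 CPM in WCH, 69.5 to 111 in TRAP, 54.2 to 77.0 in SNF and 36.5 to 53.6 in SynapTRAP, and was called lower in SNF than in WCH (-0.60) and in SynapTRAP than in TRAP (-1.13). That for SNF against WCH was lost in 5 of 6 fits that left out 1 library, all but that without SNF replicate 3, at -0.66 to -0.46, and the other held.

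Dynactin tethers dynein to its cargo and to the microtubule. Of its 6 subunits counted here, 3 were higher in TRAP than in WCH (11.1% of all genes were), 3 were lower in SNF than in WCH (16.5%) and 4 were lower in SynapTRAP than in TRAP (18.1%). Dctn3, a small subunit of the shoulder of the complex (chr4:41714798-41723170, minus strand, GRCm38), was at 39.3, 30.4 and 33.9 CPM in WCH, 71.0, 93.1 and 111 in TRAP, 35.1, 29.2 and 31.8 in SNF, and 24.7, 28.7 and 37.1 in SynapTRAP. TRAP alone stood apart, and the other 3 groups overlapped. It was 1.41 higher in TRAP than in WCH (SE 0.23, adjusted p = 0.000352 by edgeR) and fell by 1.61 in SynapTRAP against TRAP (SE 0.23, adjusted p = 1.71e-05), and neither call depended on 1 library. The pull-down from the band left it at -0.09 (adjusted p = 0.881). The difference between both pull-down effects was -1.50 (SE 0.32, adjusted p = 0.0329). That call was lost without WCH replicate 1 (-1.74), 2 (-1.41) or 3 (-1.48), SNF replicate 1 (-1.43) or 2 (-1.56), or SynapTRAP replicate 1 (-1.50), and with total gene counts (-0.12, adjusted p = 0.833), where the median of all genes was 1.457.

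Dctn1, the large subunit that grips the microtubule, was at 34.9, 29.2 and 27.9 CPM in WCH, 88.3, 52.7 and 121 in TRAP, 41.1, 40.1 and 25.0 in SNF, and 86.2, 78.2 and 42.9 in SynapTRAP. Each pull-down was above its input without overlap. It was 1.51 higher in TRAP than in WCH (SE 0.29, adjusted p = 0.00127 by edgeR), held without any 1 library, and 0.97 higher in SynapTRAP than in SNF (SE 0.30, adjusted p = 0.0646), a value that was called with the replicate block, as given above, with no filter on low counts and with scaling outside the mitochondrial genome. Dctn2, which joins the arm to the filament, was at 57.4, 59.3 and 58.7 CPM in WCH, 105, 75.9 and 133 in TRAP, 40.2, 40.4 and 32.3 in SNF, and 45.9, 47.7 and 37.7 in SynapTRAP. It was 0.84 higher in TRAP than in WCH (SE 0.22, adjusted p = 0.00945), a call lost without TRAP replicate 3 (0.67), and fell by 1.26 in SynapTRAP against TRAP (SE 0.22, adjusted p = 0.00016). Its fall by 0.64 in SNF against WCH (adjusted p = 0.0317) was lost without any 1 of the 6 libraries, at -0.69 to -0.54, and with RLE scaling (-0.50). Dctn5 and Dctn6, subunits of the pointed end of the filament, fell by 1.25 (adjusted p = 0.000131) and 0.84 (adjusted p = 0.00655) in SynapTRAP against TRAP. In SNF against WCH they fell by 0.71 (adjusted p = 0.0168) and 0.65 (adjusted p = 0.0393). Leaving out 1 library ended the SNF call for Dctn5 in 5 of 6 fits, all but that without SNF replicate 3 (-0.72 to -0.65), and for Dctn6 in 6 of 6 (-0.72 to -0.53), and RLE scaling ended both (-0.58 and -0.51). Dctn4 was at 78.5 to 86.6 CPM in WCH and 56.1 to 60.1 in SNF, without overlap, and missed the threshold there (-0.51, adjusted p = 0.0549).

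The wider transport machinery was counted in the same way, from a list of 48 symbols of adaptors and regulators. Of these, 47 were found and 44 tested. The list includes Kif1bp, which is also among the 65 motor genes. In TRAP against WCH 12 were higher (27.3%, against 11.1% of all genes) and 5 lower (11.4%, against 10.9%), and in SNF against WCH 4 were higher (9.09%, against 20.6%) and 10 lower (22.7%, against 16.5%). In SynapTRAP against SNF 3 were higher (6.82%, against 2.29%) and 0 lower (1.79% of all), and in SynapTRAP against TRAP 7 were higher (15.9%, against 21.6%) and 9 lower (20.5%, against 18.1%). Clstn1, a membrane protein that binds kinesin light chains, was at 277, 243 and 345 CPM in WCH, 392, 687 and 770 in TRAP, 1241, 1499 and 1114 in SNF, and 1008, 1522 and 816 in SynapTRAP, and was 2.15 higher in SNF than in WCH (SE 0.30, adjusted p = 1.2e-05 by edgeR). Kidins220, another kinesin-1 cargo, was 1.33 higher there (SE 0.25, adjusted p = 0.000236). Of the 4 JIP scaffold genes, which link motors to cargo, Mapk8ip1 and Mapk8ip3 were higher in SynapTRAP than in SNF, by 1.30 (SE 0.26, adjusted p = 0.0105) and 0.99 (SE 0.24, adjusted p = 0.021), and Mapk8ip3 was 1.56 higher in TRAP than in WCH (adjusted p = 0.000196). The other JIP genes were not called in SynapTRAP against SNF, with Mapk8ip2 at 1.49 (adjusted p = 0.352) and Spag9 at -0.29 (adjusted p = 0.47). Bicdl1, a dynein adaptor, was 1.33 higher in SynapTRAP than in SNF (SE 0.29, adjusted p = 0.0141). The dynein adaptors Hook1 and Hook3 were lower in TRAP than in WCH, with log2 changes of -1.48 (SE 0.25, adjusted p = 0.000533) and -1.72 (SE 0.25, adjusted p = 0.000144), and in SNF than in WCH, with -1.54 (adjusted p = 0.000131) and -1.14 (adjusted p = 0.00104). Hook3, at 148 to 162 CPM in WCH, 33.9 to 59.7 in TRAP, 54.5 to 87.5 in SNF and 54.4 to 81.0 in SynapTRAP, was the only listed adaptor for which the pull-down effects differed (1.57, SE 0.35, adjusted p = 0.0332). Leaving out single libraries was not run for the adaptors. Of 20 axonemal dynein genes, 10 were tested. In SNF against WCH 1 was lower (16.5% of all genes were), and in SynapTRAP against TRAP 2 were higher (21.6%) and 1 lower (18.1%), none of these a larger share than over all genes.

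In the authors' deposited table of 3508 genes enriched in SNF by column, 7 motor genes were listed. They were the same 7 as called higher here, where 20.6% of all tested genes were. That table comes from the same series, so the match is no independent check. The authors' deposited table gave log2 changes of 1.90 for Dync1h1, 1.84 for Kif5a, 1.70 for Kif1a, 1.45 for Kif1c, 1.33 for Kif5c, 1.13 for Kif5b and 1.08 for Kif1b. The authors' deposited table of 109 candidates for local translation held 0 motor genes. Their deposited table of 275 candidates for somatic translation held 3, namely Dynll1, Dync1i1 and Dctn5. Beside 29879 genes counted, lists of 109 and 275 leave little room for any set of 65 genes. Neither the 0 nor the 3 is therefore a result about motor genes. In that deposited table Dynll1 had a log2 change of 0.76 by TRAP and -0.82 by column, Dync1i1 of 0.93 and -0.60, and Dctn5 of 0.57 and -0.60.

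Exon length moved with the change among the motor genes, but over all genes it did not in SNF against WCH. Across the 50 tested motor genes, which are not independent of one another, Spearman's rho between exon length and log2 change was 0.452 in SNF against WCH and 0.542 in SynapTRAP against TRAP. Over the 13306 tested genes with a length it was 0.003 and 0.225. Of the genes higher in SNF than in WCH, Kif1b had 17608 bases of exon, Dync1h1 15658 and Kif1a 9330. The others were shorter, with 7981 for Kif5b, 7276 for Kif1c, 7142 for Kif5c and 6990 for Kif5a. Dync1i2 with 8280 bases and Kif3c with 7406 were lower in SNF than in WCH. In TRAP against WCH rho was -0.176 over the motor genes and -0.227 over all genes. The part of mRNA length in these changes was not tested.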

How the data were processed

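RNA sequencing covered 12 libraries of mouse cortex, 3 in each of 4 groups. The authors deposited raw whole-number counts per gene, without normalization, and 3 gene tables that hold p-values, likelihood ratio scores and log2 fold changes. Per the labels' protocols, a NuGEN kit gave the cDNA. HTSeq, edgeR, STAR and Bowtie2 are named in the submitters' processing notes. Their versions, the genome build, the annotation and the strand setting were not given there. The 5 summary lines per library, 19.3% to 58.3% of its reads, were left out. Symbols for 28758 of 29879 genes came from GENCODE M21.

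The members and all gene lists were chosen with earlier results of these data known. In edgeR 4.0.16 under R 4.3.3, a model of the 4 group means was fitted to all 12 libraries, with TMM scaling, the default expression filter and the robust quasi-likelihood test, which was tested on simulated data. Every adjusted p is from that fit over 13404 genes unless another tool, scaling, filter or block is named with it. Levels are CPM, and CPM per kilobase of merged exons where genes are compared. Counting error is largest in SNF, where counts outside the mitochondrial genome were fewest. Full statistics were given to a set list of transport motors, to the 3 called members with the largest positive and the 3 with the largest negative change in each comparison, and to members called in the interaction. Alternatives were other scalings, no filter, a replicate block, DESeq2 1.42.0, fits of only the groups compared and leaving out each library.

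Deviations from group means of same-numbered libraries correlated across genes at 0.218 to 0.378 between SynapTRAP and SNF and at 0.104 to 0.144 between SynapTRAP and TRAP, over 0.1 in every pair, so these were taken as paired from the data, since the labels do not say what the numbers mean. For TRAP and WCH the range was -0.015 to 0.063 and for SNF and WCH 0.065 to 0.165.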

Additional observations from a re-analysis of the deposited data

Results flagged for a closer look

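The effect of the pull-down on Dctn3, the dynactin shoulder subunit, differed between the synaptic band and the homogenate by -1.50 on the log2 scale (SE 0.32, adjusted p = 0.0329 by edgeR, 12 libraries), by a test of the difference itself. The 3 TRAP libraries lay above all WCH libraries, and the SynapTRAP and SNF libraries overlapped. Without single libraries the value ranged from -1.78 to -1.41, and it was no longer called without 6 of the 12, WCH replicates 1 (-1.74), 2 (-1.41) and 3 (-1.48), SNF replicates 1 (-1.43) and 2 (-1.56) and SynapTRAP replicate 1 (-1.50). With total gene counts as scaling it was -0.12 (adjusted p = 0.833) and not called, where the median of all genes was 1.457.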

How the results depend on the processing

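Counts of called motor genes moved by over 1.5 times as follows. With total gene counts, SNF against WCH gave 0 higher and 45 lower, SynapTRAP against SNF 47 higher, SynapTRAP against TRAP 1 higher and 27 lower, and the interaction 27 higher and 0 lower. Most of this was shared by all 13404 genes tested. Of them, 11 were higher and 11438 lower in SNF against WCH, and 12169 were higher in SynapTRAP against SNF. In SynapTRAP against TRAP 596 were higher and 6399 lower, and in the interaction 6328 were higher and 0 lower. With scaling outside the mitochondrial genome, TRAP against WCH gave 2 lower, SNF against WCH 22 lower and SynapTRAP against TRAP 7 higher. Of all 13137 genes tested there, 1776, 4850 and 2071 were, in the same order. With RLE factors, SNF against WCH gave 5 lower, SynapTRAP against SNF 1 higher and the interaction 2 lower. Of all 13404 genes, 1415, 185 and 75 were. DESeq2 gave 7 lower in SNF against WCH, 1 lower in SynapTRAP against SNF, and 1 higher and 3 lower in the interaction. Of all 13404 genes it gave 1502, 617, 175 and 390. Without a filter, SynapTRAP against SNF gave 4 higher and the interaction 1 higher and 3 lower, where 547, 310 and 202 of all 20380 genes were. Fits of only the groups compared gave 1 higher in SynapTRAP against SNF (138 of all 11616 genes) and 6 higher in SynapTRAP against TRAP (2426 of 12582). The interaction uses all groups, so no such fit exists for it.

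With the replicate block, SynapTRAP against SNF gave 4 higher (Dctn1 and Dync1li2 added), where 441 of all 13404 genes were. Of the groups in the interaction, SynapTRAP was taken as paired with SNF and with TRAP. Libraries were not taken as paired in TRAP against WCH or SNF against WCH, and only in part in the interaction. There the block gave 1 lower in TRAP against WCH (Dync1i2, -0.66, adjusted p = 0.045 by edgeR), called Klc2 in SNF against WCH (-0.57, adjusted p = 0.0395), and gave 1 higher and 2 lower in the interaction (Dynlrb1 added, -1.33, adjusted p = 0.0156). Of all 13404 genes, 1737 were lower in TRAP against WCH with the block, and 217 were higher and 149 lower in the interaction. The block changed no other call of a gene with full statistics.

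Without single libraries, the count ranged from 5 to 13 higher and 0 to 1 lower in TRAP against WCH, 7 to 7 and 3 to 7 in SNF against WCH, 0 to 3 and 0 to 1 in SynapTRAP against SNF, 7 to 12 and 13 to 18 in SynapTRAP against TRAP, and 0 to 2 and 0 to 2 in the interaction. Over all 13723 to 13939 genes tested, the ranges were 652 to 1550 higher and 832 to 1285 lower in TRAP against WCH. They were 2193 to 2666 and 971 to 1973 in SNF against WCH, and 19 to 499 and 20 to 453 in SynapTRAP against SNF. SynapTRAP against TRAP had 2324 to 2971 and 1953 to 2642, and the interaction 0 to 241 and 0 to 297. Kif5a in TRAP against WCH ranged from -0.12, without TRAP replicate 3, to 0.86, without TRAP replicate 2.

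All other reversals came from total gene counts, which moved the medians of all genes as given above. In TRAP against WCH, Kif5c became 0.22. In SNF against WCH, Dctn1 became -2.17, Dync1h1 -0.76, Kif1a -0.84, Kif1b -1.43, Kif21b -2.10, Kif5a -0.63, Kif5b -1.21 and Kif5c -1.07. In SynapTRAP against SNF, Dctn3 became 1.84, Dctn5 1.99, Dctn6 1.82, Dynll1 1.65, Dynlrb1 1.38 and Kif5c 1.71. In SynapTRAP against TRAP, Dync1li2 became -0.55, Kif1a -0.17, Kif1b -0.14 and Kif21b -0.54. In the interaction, Dctn1 became 1.03, Dctn2 0.85, Dctn5 0.89, Dync1i1 0.84, Dync1li1 1.33, Dynll1 0.32, Kif1a 0.67, Kif1b 1.29, Kif3c 1.33, Klc1 0.73 and Klc2 1.05. What caused the other changes was not tested. Depth limits the scarce genes: in SNF against WCH the SE was 0.63 for Kif11 and 1.17 for Kif20a, both division kinesins, beside 0.27 for Kif5c.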
